A study of Danio rerio with 48 samples.

Results

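The vacuolar proton ATPase (V-ATPase) genes of zebrafish were followed in yolk tissue and in whole embryos over the first days of development. The genes were taken by name, as every row of the count table whose symbol starts with atp6v or atp6ap. This gave 27 genes of 36109, of which 13 encode subunits of the V1 part, 9 of the V0 part and 5 accessory proteins. All animals were wild type (WT). Total RNA was sequenced from yolk tissue and from whole embryos at 6, 10, 26 and 48 hours post fertilization (hpf), with 4 libraries in each of these 8 groups. The series is about the supply of yolk lipid to the growing embryo. Body tissue libraries, 16 of the 48 samples listed, were not analysed here. The labels do not say how yolk was separated, how many embryos were pooled, or that the libraries of a group came from separate clutches, so p-values measure the spread between these libraries. A whole embryo carries its yolk, so the whole-embryo libraries can hold RNA of the other tissue.

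The V-ATPase is a rotary pump that spends ATP to move protons into lysosomes, endosomes and other compartments, and its acid is needed by the proteases and lipases that work there. The V1 part lies in the cytosol. Its A and B subunits form a ring that hydrolyses ATP, D and F form the central rotor, E and G form the outer stalks, and C and H hold and regulate the joint with the membrane. In the membrane, V0 holds a ring of c proteins (and the related c″ protein encoded by atp6v0b), the a subunit that lets protons reach that ring, the d subunit that couples the ring to the rotor, and the small e subunit. The protein encoded by ATP6AP1 helps assembly of V0 in mammals and yeast, and the one encoded by ATP6AP2 is also known as the prorenin receptor. In zebrafish the yolk is bounded by the yolk syncytial layer, a layer of shared cytoplasm and many nuclei that breaks down yolk protein and lipid and passes the products to the embryo.

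Library totals ran from 32302472 to 39765045 counts. Of the 27 genes, 26 passed the filter on low counts and were tested, and atp6v0e1, which encodes an e subunit, had 0 counts in all 32 libraries. Levels below are in CPM (counts scaled to a fixed library size, here after TMM scaling), as mean ± SD of 4 libraries unless single libraries are listed, which are in the order of their replicate numbers. They are not divided by gene length, so they are compared between groups and not between genes. Counts of close copies can be split by the authors' counting. In the RefSeq annotation of GRCz12tu 6 of the genes (atp6ap1a, atp6v0e1, atp6v1b2, atp6v1c1a, atp6v1e1a and atp6v1f) overlap another coding gene, and reads of such genes may be hard to tell apart. The counts were made on another build, GRCz11, where overlaps were not checked. Calls are from the edgeR quasi-likelihood test at an adjusted p of 0.05, with adjustment over all 26268 genes tested. Markers of the yolk syncytial layer were higher in yolk than in whole embryos for 7, 6, 5 and 5 of 7 genes at the 4 ages, and 1 was lower at 48 hpf. Among them, mxtx2 was at 0 in yolk at 26 hpf. Over all genes tested, 24.8%, 24.5%, 20.6% and 22.8% were higher in yolk at the 4 ages, and 27.5% were lower at 48 hpf. In bulk tissue, more cells or nuclei of a type and more RNA in each of them cannot be told apart. Yolk replicate 1 of 26 hpf stood apart from replicates 2 to 4. Its skeletal muscle markers summed to 5561 CPM, against 70.7 to 171 CPM in the other 3. Sums of notochord (1116 against 25 to 34.5 CPM), neuron (278 against 25.5 to 60.3 CPM), epidermis (5721 against 346 to 2845 CPM) and pigment cell markers (199 against 131 to 186 CPM) were also higher. Those of erythroid (755 against 2721 to 4087 CPM) and macrophage and neutrophil markers (110.3 against 164 to 223 CPM) were lower, and that of ionocyte markers was within the range. The yolk syncytial layer markers of replicate 1 summed to 63781 CPM, against 109806 to 153257 CPM. After TMM scaling 17 of the 26 V-ATPase genes were below, 4 above and 5 within the range of the other 3. These positions depend on the scaling, as the TMM factor was 0.9367 in replicate 1 and 0.7296, 0.6004 and 0.5291 in replicates 2 to 4. As a share of all counts, the V-ATPase genes together held 0.309% in replicate 1, against 0.318%, 0.369% and 0.423%.

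The summed V-ATPase counts took a larger share of yolk libraries than of whole-embryo libraries at 6, 10 and 26 hpf. Their share of all counts in yolk was 0.151% ± 0.0237 at 6 hpf, 0.391% ± 0.0321 at 10 hpf, 0.355% ± 0.0529 at 26 hpf and 0.15% ± 0.00758 at 48 hpf (SD, n = 4 each). In whole embryos it was 0.0532% ± 0.00878, 0.102% ± 0.00601, 0.14% ± 0.0125 and 0.162% ± 0.00485 at the same ages. The yolk libraries were all above the whole-embryo libraries up to 26 hpf. At 48 hpf they ran from 0.145% to 0.161%, against 0.157% to 0.168% in whole embryos, and the ranges overlapped. Within each part they did not overlap at that age. V1 was higher in yolk, at 0.0751% to 0.0788% against 0.0695% to 0.0728% in whole embryos. V0 was lower in yolk by a narrow gap, at 0.0508% to 0.0631% against 0.0632% to 0.071%. Accessory genes were lower in yolk too, at 0.0173% to 0.0195% against 0.0228% to 0.0275%. The V0 and total shares leave out tcirg1b, which encodes a further a subunit under a symbol outside the name rule. At 48 hpf tcirg1b had 427 ± 126 CPM in yolk and 28.3 ± 6.22 CPM in whole embryos. Shares that include it were not computed, so the V0 order and the overlap of totals hold for the named genes only. At 10 hpf the V1 genes gave most of the gap, with 0.249% ± 0.0204 in yolk against 0.0489% ± 0.00248 in whole embryos. For V0 the shares at that age were 0.107% ± 0.00815 in yolk and 0.0421% ± 0.00367 in whole embryos. Accessory genes held 0.0354% ± 0.00438 in yolk and 0.0106% ± 0.00068 in whole embryos.

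**Figure D1:**
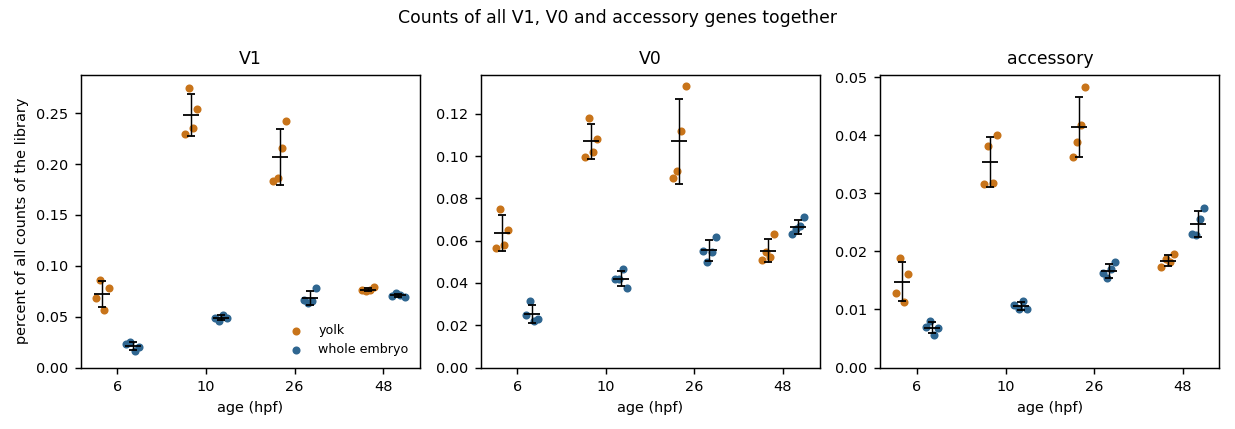
Percent of all counts held by V1, V0 and accessory genes (y axis) at each age in hpf (x axis), with 1 point per library and mean ± SD in black. Yolk libraries lie above whole-embryo libraries for all 3 parts at 6, 10 and 26 hpf, and V1 in yolk is highest at 10 hpf at 0.249% ± 0.0204.

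Most of the genes were higher in yolk than in whole embryos while the embryo was young, and fewer were at 48 hpf. At 6 hpf 19 of 26 were higher and 1 was lower, where 24.8% of all genes tested were higher and 27.4% lower. The median log2 difference over the 26 was 1.85, against -0.05 over all genes. At 10 hpf 19 were higher and 3 lower, with 24.5% of all genes higher and 29.9% lower, and medians of 2.37 over the 26 and -0.22 over all genes. At 26 hpf 18 were higher and 4 lower, with 20.6% and 25.3% of all genes, and medians of 2.31 and -0.25. At 48 hpf 13 were higher and 7 lower, with 22.8% and 27.5% of all genes, and medians of 0.57 and -0.04.

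The scaling sets how far the later ages lean to yolk. When libraries were scaled by their totals alone, the median of all genes moved to -0.42, -1.10, -1.31 and -0.65 at the 4 ages, and the V-ATPase genes split into 17 higher and 1 lower at 6 hpf, 17 and 5 at 10 hpf, 16 and 8 at 26 hpf, and 7 and 9 at 48 hpf. Of all genes tested, 19.1%, 15%, 10% and 11.5% were higher and 33.7%, 47%, 57% and 42.5% lower under that scaling at the same ages. Without yolk replicate 1 of 26 hpf, 19 were higher and 4 lower at that age, with a median of 2.48.

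**Figure D2:**
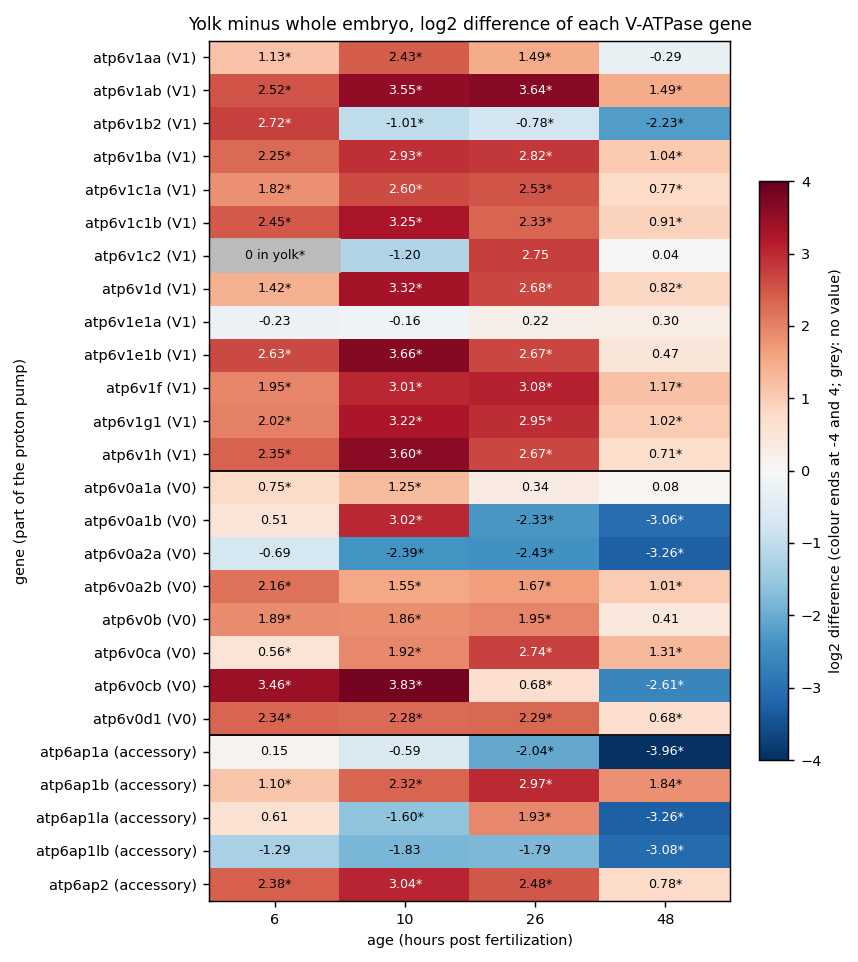
Log2 difference of yolk minus whole embryo for the 26 tested genes (rows, in the order V1, V0, accessory) at each age in hpf (columns); an asterisk marks an adjusted p under 0.05, and the grey cell is a gene with 0 counts in yolk. Most V1 rows are red at every age. In each part single copies turn from red to blue, as in atp6v0cb with 3.83 at 10 hpf and -2.61 at 48 hpf. In V1, atp6v1b2 is at 2.72 at 6 hpf and -1.01 at 10 hpf.

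In the V1 part, 11 of 13 genes were higher and 1 lower in yolk at 6 hpf, 10 and 1 at 10 hpf, 10 and 1 at 26 hpf, and 8 and 1 at 48 hpf. The shares of all genes higher were 24.8%, 24.5%, 20.6% and 22.8%, and those lower 27.4%, 29.9%, 25.3% and 27.5%. When scaled by totals alone, the V1 split was 11 and 1, 10 and 2, 10 and 2, and 4 and 2. The 4 V1 genes that were then no longer called at 48 hpf were atp6v1c1a, atp6v1c1b, atp6v1d and atp6v1h (adjusted p of 0.39, 0.23, 0.28 and 0.76). For the catalytic A subunit, the copy atp6v1ab was highest in yolk at 10 hpf. Its level was 1041, 1099, 929 and 1004 CPM in the yolk libraries at 10 hpf, against 92.4, 75.6, 82.7 and 98.2 CPM in whole embryos. At 26 hpf it was 401, 532, 716 and 929 CPM in yolk and 50.2, 48.3, 49.1 and 59.1 CPM in whole embryos. Every yolk library was above every whole-embryo library at all 4 ages. The log2 difference was 2.52 ± 0.26 at 6 hpf, 3.55 ± 0.27 at 10 hpf, 3.64 ± 0.27 at 26 hpf and 1.49 ± 0.25 at 48 hpf (± SE; adjusted p of 2.2e-09, 5.6e-12, 5.6e-12 and 1.5e-05). No other gene with an atp6v or atp6ap symbol differed as much at 26 hpf.

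The other A copy, atp6v1aa, was also higher in yolk up to 26 hpf. At 10 hpf it had 95.9, 126, 101 and 119 CPM in yolk, against 20.2, 20.5, 20.6 and 20.6 CPM in whole embryos. At 48 hpf the order was turned, with 59.8, 45.2, 57.9 and 47.2 CPM in yolk and 63.7, 69.5, 63.5 and 60.9 CPM in whole embryos. The libraries did not overlap at either age. Its log2 difference was 2.43 ± 0.18 at 10 hpf (adjusted p = 2.9e-12) and -0.29 ± 0.17 at 48 hpf, which did not pass (adjusted p = 0.16). Scaled by totals alone, the value of 48 hpf was -0.92 and passed (adjusted p = 2.6e-06).

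Of the B subunit genes, which bind nucleotide beside the catalytic A subunit, atp6v1ba was higher in yolk at every age and atp6v1b2 at 6 hpf. The level of atp6v1ba was 664, 769.9, 708 and 656 CPM in yolk at 10 hpf, against 92.7, 87.2, 96 and 90.7 CPM in whole embryos. At 48 hpf it was 235, 192, 204 and 199 CPM in yolk and 109, 102, 102 and 89.8 CPM in whole embryos. The tissues did not overlap at any age, and the log2 difference was 2.25 ± 0.16 at 6 hpf, 2.93 ± 0.17 at 10 hpf, 2.82 ± 0.17 at 26 hpf and 1.04 ± 0.16 at 48 hpf (adjusted p of 1.4e-12, 1.9e-14, 3.8e-14 and 2.9e-06).

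For atp6v1b2, the yolk libraries had 17.4, 15.3, 18.6 and 15.2 CPM at 6 hpf, against 2.91, 2.61, 1.89 and 2.64 CPM in whole embryos. At 10 hpf they had 1.69, 0.756, 1.37 and 1.68 CPM, against 3.08, 2.25, 3.01 and 2.72 CPM, so the order of the tissues was turned between these ages. By 48 hpf there were 4.93, 8.78, 8.74 and 8.04 CPM in yolk and 35.1, 35.2, 38.4 and 34.9 CPM in whole embryos. None of these sets overlapped, and the log2 difference was 2.72 ± 0.24 at 6 hpf, -1.01 ± 0.24 at 10 hpf, -0.78 ± 0.22 at 26 hpf and -2.23 ± 0.23 at 48 hpf (adjusted p of 6.5e-11, 0.00061, 0.0056 and 4.4e-09). In fits of the libraries of 26 hpf alone the value of that age did not pass, with the replicate number as a block (adjusted p = 0.097) or without it (adjusted p = 0.075).

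**Figure D3:**
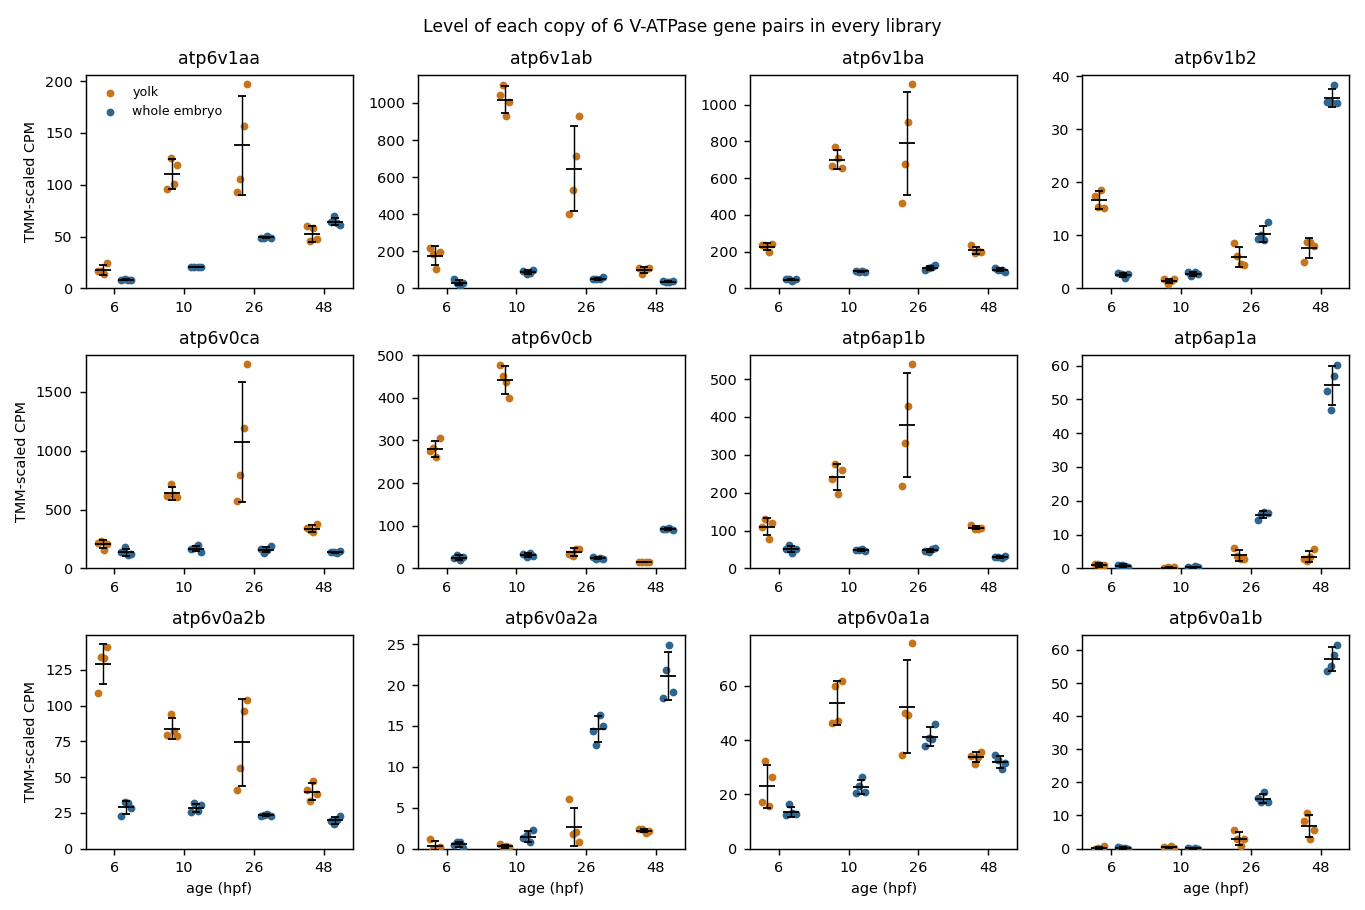
Level in TMM-scaled CPM (y axes, each from 0) of both copies of 6 V-ATPase gene pairs at each age in hpf (x axes), with 1 point per library and mean ± SD in black. In yolk atp6v1ab reaches 1018 ± 71.2 CPM at 10 hpf and atp6v0cb drops to 38.4 ± 8.69 CPM at 26 hpf, while atp6ap1a, atp6v0a1b and atp6v0a2a stay under 7 CPM on average at every age.

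All rotor and stalk genes but atp6v1e1a were higher in yolk at 6, 10 and 26 hpf. For the rotor gene atp6v1d the yolk libraries had 313, 219, 266 and 235 CPM at 10 hpf, against 24.7, 24.9, 27.9 and 25.7 CPM in whole embryos. At 6 hpf they had 66.3, 62, 48.4 and 63.3 CPM, against 29.9, 23.2, 18.8 and 17.7 CPM. The tissues were fully apart at both ages, and the log2 difference was 1.42 ± 0.20 at 6 hpf and 3.32 ± 0.22 at 10 hpf (adjusted p of 6.8e-07 and 1.9e-13). The other rotor gene, atp6v1f, had 82.9, 109, 129 and 182 CPM in yolk at 26 hpf, against 14.6, 14.8, 12.3 and 18 CPM in whole embryos, with a log2 difference of 3.08 ± 0.23 (adjusted p = 3.6e-12). At 48 hpf it was still higher in yolk, with 37.8 ± 2.74 CPM in yolk and 16.8 ± 1.06 CPM in whole embryos.

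For the stalk gene atp6v1e1b there were 393, 526, 449 and 422 CPM in yolk at 10 hpf and 32.8, 33.3, 45.7 and 29.6 CPM in whole embryos, with a log2 difference of 3.66 ± 0.23 (adjusted p = 1.2e-13). By 48 hpf its levels were 81.5, 79.2, 78.8 and 79.1 CPM in yolk, against 54.7, 60.5, 57.3 and 57 CPM in whole embryos. These still did not overlap, but the log2 difference of 0.47 ± 0.21 did not pass (adjusted p = 0.062). In fits of the 48 hpf libraries alone it passed, with the replicate number as a block (adjusted p = 0.00024) and without it (adjusted p = 5.9e-05). The same held for atp6v1aa, as lower in yolk (adjusted p = 0.04 with the block and 0.041 without), and for atp6v0b, as higher (adjusted p = 0.0004 and 0.00092). The blocked fit called 15 V-ATPase genes higher and 8 lower at that age. The share of all genes called in that fit is not given here, so this count has no background. The other copy of the E gene, atp6v1e1a, passed at no age, and both tissues were under 5 CPM on average: 0.953 ± 0.446 CPM in yolk and 1.12 ± 0.689 CPM in whole embryos at 6 hpf, and 4.85 ± 1.24 and 3.95 ± 0.515 CPM at 48 hpf. It was lower in yolk with library totals alone at 10 hpf (-1.04, adjusted p = 0.023) and at 26 hpf (-0.92, adjusted p = 0.038). The G gene atp6v1g1 had log2 differences of 2.02 ± 0.20, 3.22 ± 0.21, 2.95 ± 0.21 and 1.02 ± 0.20 at the 4 ages, all of which passed.

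Subunits C and H join V1 to the membrane part. The H gene atp6v1h averaged 218 ± 34 CPM in yolk at 10 hpf, against 18 ± 2.62 CPM in whole embryos, and its log2 difference was 3.60 ± 0.27 (adjusted p = 3.5e-12). The C copy atp6v1c1b had 49.9, 65.1, 97.3 and 130.1 CPM in yolk at 26 hpf and 17.5, 13.9, 16.1 and 20.4 CPM in whole embryos. Its log2 difference was 2.45 ± 0.26, 3.25 ± 0.25, 2.33 ± 0.24 and 0.91 ± 0.23 at 6, 10, 26 and 48 hpf, and the tissues did not overlap at any of these ages. The copy atp6v1c1a followed it, with 1.82 ± 0.19, 2.60 ± 0.20, 2.53 ± 0.20 and 0.77 ± 0.19. The third C gene, atp6v1c2, was the 1 V-ATPase gene called lower in yolk at 6 hpf. It had 0 counts in the 4 yolk libraries, against 0.401, 0.414, 0 and 0.054 CPM in whole embryos, so whole embryo replicate 3 was at 0 too. Against a floor of 3 counts over the group, yolk was 7.94-fold lower (adjusted p = 0.0051). This floor treats counts as independent, and the fold is smaller if 2 counts come from 1 fragment. The whole-embryo mean rests mostly on 15 and 16 counts in replicates 1 and 2. In a fit of the 6 hpf libraries alone atp6v1c2 was left out by the filter on low counts. At the other ages its difference did not pass, and its highest group mean was 0.463 CPM.

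**Figure D4:**
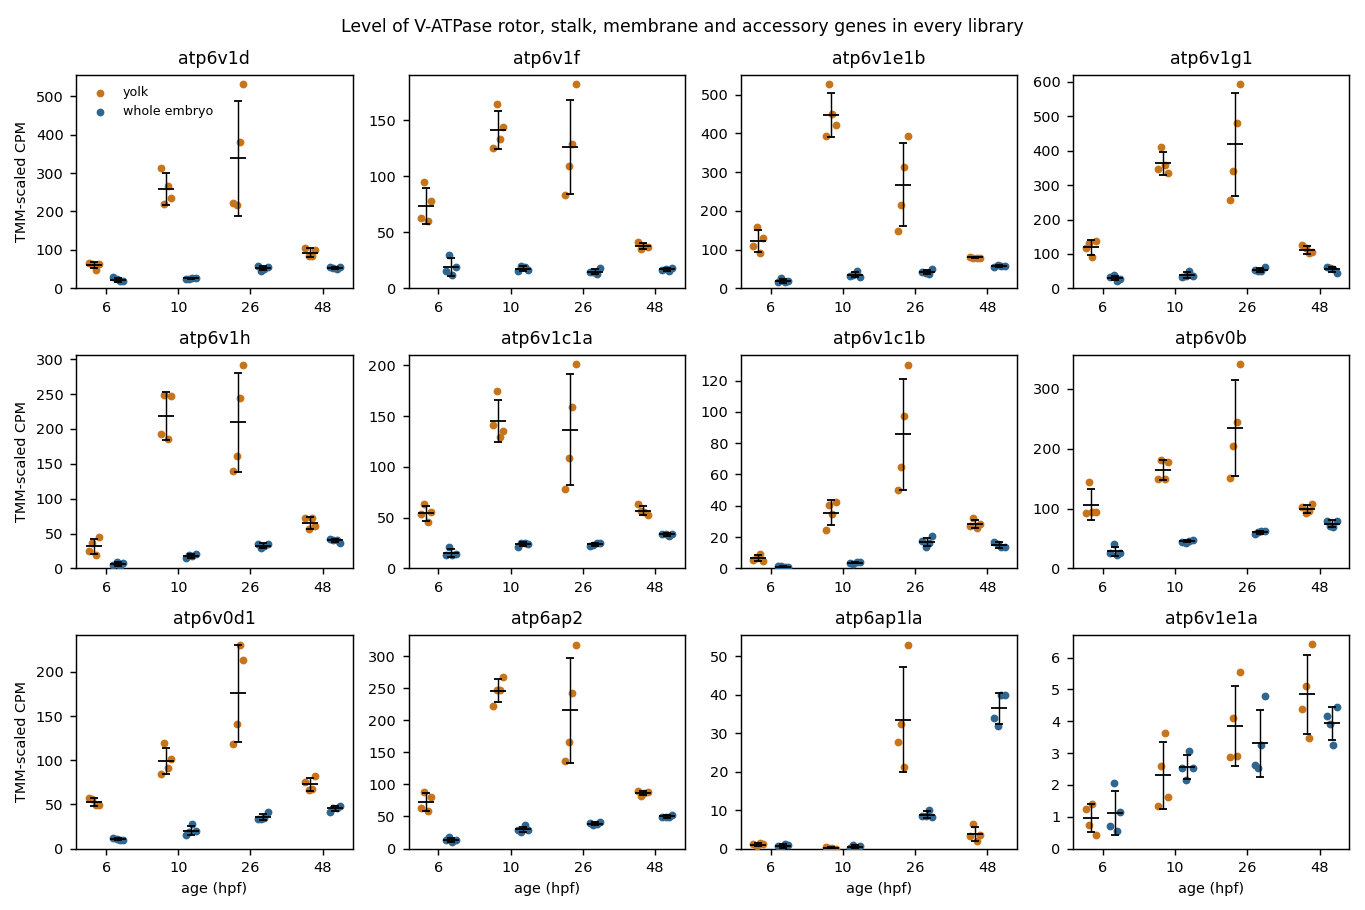
Level in TMM-scaled CPM (y axes, each from 0) of rotor, stalk, membrane and accessory genes at each age in hpf (x axes), with 1 point per library and mean ± SD in black. In atp6v1d, atp6v1f, atp6v1e1b, atp6v1g1 and atp6v1h the yolk is far above the whole embryo at 10 and 26 hpf and less far above it at 48 hpf, as with 79.7 ± 1.21 CPM of atp6v1e1b in yolk and 57.4 ± 2.37 CPM in whole embryos.

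Copies of V0 subunits differed in direction. In yolk 6 of 8 tested V0 genes were higher and 0 lower at 6 hpf, 7 and 1 at 10 hpf, 5 and 2 at 26 hpf, and 3 and 3 at 48 hpf. The shares of all genes higher were 24.8%, 24.5%, 20.6% and 22.8%, and those lower 27.4%, 29.9%, 25.3% and 27.5%. Scaled by totals alone, the V0 split was 4 and 0, 5 and 1, 4 and 4, and 2 and 4. The c ring gene atp6v0cb had the largest differences in favour of yolk at 6 and 10 hpf among the atp6v and atp6ap symbols. Its level in yolk was 275, 282, 261 and 306 CPM at 6 hpf, against 23.9, 32.2, 18.6 and 27.2 CPM in whole embryos. At 10 hpf it was 478, 450.3, 436 and 399 CPM in yolk and 32.9, 26.6, 36.1 and 28.1 CPM in whole embryos. Yolk was thus 11-fold and 14.2-fold higher, with log2 differences of 3.46 ± 0.16 and 3.83 ± 0.16 (adjusted p of 1.8e-16 and 7.8e-17).

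At the later ages atp6v0cb was nearer to or below the whole embryo. There were 33.4, 28.7, 45 and 46.3 CPM in yolk at 26 hpf and 27.4, 21.9, 23.9 and 22.2 CPM in whole embryos. By 48 hpf there were 14.3, 15.1, 15.2 and 16.2 CPM in yolk and 92.7, 92.6, 94.5 and 90.7 CPM in whole embryos. The tissues were apart at both ages, in opposite order. The log2 difference was 0.68 ± 0.14 at 26 hpf (adjusted p = 0.00028) and -2.61 ± 0.15 at 48 hpf (adjusted p = 5.8e-14). With library totals alone the value of 26 hpf was -0.44 and passed on the other side (adjusted p = 0.0058).

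The other c ring copy, atp6v0ca, was higher in yolk at every age. Its yolk libraries had 217, 234, 157 and 208 CPM at 6 hpf, against 139, 180.2, 115 and 119 CPM in whole embryos, and the tissues overlapped. At 26 hpf they had 569, 792, 1195 and 1733 CPM, against 167, 132, 155 and 187 CPM. By 48 hpf there were 341, 322, 309.6 and 381 CPM in yolk and 136, 137, 129.7 and 144 CPM in whole embryos, again fully apart. The log2 difference was 0.56 ± 0.21 at 6 hpf, 1.92 ± 0.22 at 10 hpf, 2.74 ± 0.22 at 26 hpf and 1.31 ± 0.21 at 48 hpf (adjusted p of 0.025, 9.8e-09, 2.7e-11 and 8.1e-06). At 6 hpf it was 0.19 with library totals alone, which did not pass (adjusted p = 0.33).

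Of the genes for the a subunit, which lines the path of the protons, atp6v0a2b was higher in yolk at every age and atp6v0a2a lower from 10 hpf on. For atp6v0a2b there were 109, 134, 133 and 141 CPM in yolk at 6 hpf, against 22.8, 32.4, 32 and 28.4 CPM in whole embryos, with log2 differences of 2.16 ± 0.19, 1.55 ± 0.19, 1.67 ± 0.19 and 1.01 ± 0.19 at the 4 ages (adjusted p of 1.1e-10, 4.6e-08, 2.6e-08 and 5.1e-05). The yolk level of atp6v0a2a was 6.09, 1.75, 2 and 0.852 CPM at 26 hpf, against 14.4, 12.7, 16.4 and 15 CPM in whole embryos. The highest of these yolk values is in replicate 1, the library with high muscle, notochord, neuron and epidermis marker sums. Its log2 difference was -2.39 ± 0.77 at 10 hpf, -2.43 ± 0.68 at 26 hpf and -3.26 ± 0.70 at 48 hpf (adjusted p of 0.0098, 0.0047 and 0.00032), and -3.24 at 26 hpf without that replicate.

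For atp6v0a1a the tissues differed at 6 and 10 hpf, with overlapping libraries at 6 hpf. At 6 hpf it averaged 22.9 ± 7.93 CPM in yolk and 13.6 ± 1.81 CPM in whole embryos, a log2 difference of 0.75 ± 0.19 (adjusted p = 0.0017). It had 46.4, 60, 47.1 and 61.6 CPM in yolk at 10 hpf, against 20.6, 23, 26.2 and 20.7 CPM in whole embryos, a log2 difference of 1.25 ± 0.20 (adjusted p = 2.8e-06). Neither passed with library totals alone (0.39 and 0.38, adjusted p = 0.069 for both). At 26 and 48 hpf it was 0.34 ± 0.19 and 0.08 ± 0.19, which did not pass. Without yolk replicate 1 of 26 hpf the value of that age was 0.49 and passed (adjusted p = 0.029). The values of 26 and 48 hpf were -0.82 and -0.54 with library totals alone, and both passed as lower in yolk (adjusted p of 0.00028 and 0.014). The copy atp6v0a1b was near 0 in both tissues at 6 and 10 hpf, where its highest group mean was 0.362 CPM. It was called higher in yolk at 10 hpf, with 0.385, 0.151, 0.683 and 0.23 CPM in yolk and 0.0812, 0, 0.0871 and 0 CPM in whole embryos (log2 difference of 3.02 ± 1.00, adjusted p = 0.012), but not with library totals alone (adjusted p = 0.08). At these levels the difference rests on few counts. At 26 hpf it had 5.51, 2.79, 0.762 and 2.77 CPM in yolk, against 15.2, 14.1, 17 and 14 CPM in whole embryos. At 48 hpf there were 8.24, 10.7, 2.96 and 5.56 CPM in yolk and 53.5, 55, 58.6 and 61.5 CPM in whole embryos. The tissues were fully apart, with log2 differences of -2.33 ± 0.63 and -3.06 ± 0.64 (adjusted p of 0.0035 and 0.00022).

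Among the remaining V0 genes, atp6v0b (the c″ protein) averaged 106 ± 25.7, 164 ± 17.2, 235 ± 80.5 and 99.2 ± 6.65 CPM in yolk at the 4 ages. In whole embryos it averaged 28.6 ± 7.82, 45.2 ± 1.69, 60.6 ± 2.3 and 74.9 ± 5.53 CPM. It was higher in yolk up to 26 hpf, and its log2 difference of 0.41 ± 0.18 at 48 hpf did not pass (adjusted p = 0.06). The d gene atp6v0d1 was higher in yolk at every age, with log2 differences of 2.34 ± 0.18, 2.28 ± 0.18, 2.29 ± 0.18 and 0.68 ± 0.17. The last of these was 0.06 with library totals alone and did not pass (adjusted p = 0.77).

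Accessory genes split by copy. In yolk 2 of 5 were higher and 0 lower at 6 hpf, 2 and 1 at 10 hpf, 3 and 1 at 26 hpf, and 2 and 3 at 48 hpf. The shares of all genes higher were 24.8%, 24.5%, 20.6% and 22.8%, and those lower 27.4%, 29.9%, 25.3% and 27.5%. Scaled by totals alone, the accessory split was 2 and 0, 2 and 2, 2 and 2, and 1 and 3. The assembly gene copy atp6ap1b had 218, 332, 429 and 539 CPM in yolk at 26 hpf, against 46.9, 43.7, 50.1 and 52.6 CPM in whole embryos. At 48 hpf it had 114, 104, 105 and 108 CPM in yolk and 30.6, 30, 27.4 and 32.5 CPM in whole embryos, and its 3.58-fold difference was the largest in favour of yolk at that age among the atp6v and atp6ap symbols. The tissues did not overlap at any age, and yolk was 2.15-fold higher at 6 hpf (adjusted p = 5.8e-06). The log2 difference was 2.32 ± 0.19, 2.97 ± 0.19 and 1.84 ± 0.18 at 10, 26 and 48 hpf (adjusted p of 1.3e-11, 1.9e-13 and 2.2e-09).

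Its partner atp6ap1a had 5.98, 3.79, 2.76 and 2.77 CPM in yolk at 26 hpf, against 14.3, 16.1, 16.6 and 16.5 CPM in whole embryos. At 48 hpf there were 2.75, 2.19, 3.24 and 5.7 CPM in yolk and 52.6, 46.7, 56.9 and 60.2 CPM in whole embryos. Every whole-embryo library was thus above every yolk library, and yolk was 15.6-fold lower at 48 hpf. The log2 difference was -2.04 ± 0.51 at 26 hpf and -3.96 ± 0.55 at 48 hpf (adjusted p of 0.0019 and 8.6e-07), while 0.15 ± 0.55 and -0.59 ± 0.66 at 6 and 10 hpf did not pass.

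The gene atp6ap1la, a relative of ATP6AP1, changed its order between the late ages. It had 27.6, 32.4, 21.2 and 52.9 CPM in yolk at 26 hpf, against 8.48, 8.47, 10.1 and 8.26 CPM in whole embryos. At 48 hpf there were 3.24, 6.34, 1.99 and 3.63 CPM in yolk and 34, 31.9, 39.8 and 40 CPM in whole embryos. The sets were fully apart at both ages, in opposite order, with log2 differences of 1.93 ± 0.47 and -3.26 ± 0.50 (adjusted p of 0.0015 and 3.8e-06). Under library totals alone the value of 26 hpf was 0.79 and did not pass (adjusted p = 0.13). The value of 10 hpf, -1.60 ± 0.66, passed with overlapping libraries (adjusted p = 0.041), of 0.308, 0.227, 0.0759 and 0 CPM in yolk against 0.162, 0.9, 0.218 and 0.596 CPM in whole embryos, and it did not pass with the replicate number as a block (adjusted p = 0.063). Its copy atp6ap1lb averaged 0.834 ± 0.159 CPM in yolk at 48 hpf and 7.07 ± 0.726 CPM in whole embryos, a log2 difference of -3.08 ± 0.82 (adjusted p = 0.0025). The gene of the prorenin receptor, atp6ap2, was higher in yolk at every age, with log2 differences of 2.38 ± 0.19, 3.04 ± 0.19, 2.48 ± 0.19 and 0.78 ± 0.18. The value of 48 hpf was 0.17 with library totals alone and did not pass (adjusted p = 0.36).

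Within yolk the pump genes rose early and fell late. At 10 hpf against 6 hpf, 19 of 26 rose and 4 fell, with 25.8% of all genes higher and 23.4% lower, and medians of 1.30 over the 26 and 0.0 over all genes. Of the 13 V1 genes 12 rose. For atp6v1ab yolk reached 1018 ± 71.2 CPM at 10 hpf, against 176 ± 50.1 CPM at 6 hpf, a log2 change of 2.53 ± 0.26 (adjusted p = 2.7e-09). The change of atp6v1h was 2.79 ± 0.26, with 218 ± 34 CPM at 10 hpf and 31.5 ± 11.4 CPM at 6 hpf. The 4 genes that fell were atp6v1b2 (by 3.59 on the log2 scale), atp6ap1la (by 2.75), atp6ap1a (by 1.93) and atp6v0a2b (by 0.63). For atp6v0a2a the change of -0.17 ± 0.85 did not pass, and it became 2.50 and passed without yolk replicate 1 of 6 hpf, the library at 1.17 CPM beside 0, 0 and 0.136 CPM. In fits of the libraries of both ages alone, the fall of atp6ap1a was not called (adjusted p = 0.34 with the replicate block and 0.19 without), nor was the rise of atp6v1e1a (0.0503 and 0.058). The rise of atp6v1c2 is against 0 counts at 6 hpf. It is 7.28-fold against a floor of 3 counts, and less if 2 counts come from 1 fragment.

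At 26 hpf against 10 hpf, 10 rose and 3 fell, with 33.3% of all genes higher and 23.1% lower, and medians of 0.36 and 0.21. The fall of atp6v0cb was the largest, to 38.4 ± 8.69 CPM at 26 hpf against 441 ± 32.9 CPM at 10 hpf, a log2 change of -3.52 ± 0.16 (adjusted p = 6.2e-17). In the same step atp6v0ca rose to 1072 ± 511 CPM, against 638 ± 53.2 CPM, with a log2 change of 0.75 ± 0.21 and overlapping libraries (adjusted p = 0.0033), which did not pass in a fit of the libraries of that step alone (adjusted p = 0.073). The rise of atp6ap1la was 7.75 ± 0.67, with 33.6 ± 13.7 CPM at 26 hpf and 0.153 ± 0.14 CPM at 10 hpf. Of the genes that rose, atp6ap1a, atp6v0a1b, atp6v0a2a and atp6v1b2 were highest in replicate 1 of 26 hpf, whose marker sums are given above, and all 4 still rose without it. Without that library 13 rose and 2 fell. Besides atp6v0ca, the rises of atp6ap1b and atp6v0b did not pass in the fit of the libraries of this step alone (adjusted p of 0.069 and 0.11). With the replicate number as a block in that fit, 7 rose and 2 fell, and the fall of atp6v1ab did not pass (adjusted p = 0.051).

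At 48 hpf against 26 hpf, 0 rose and 19 fell, where 12% of all genes rose and 16.1% fell, and the median was -1.33 over the 26 and -0.01 over all genes. At an unadjusted p of 0.05 edgeR also called 0 rises, and DESeq2's Wald test called 0 rises and 19 falls. The catalytic gene atp6v1ab fell to 100.2 ± 15.9 CPM at 48 hpf, against 645 ± 229 CPM at 26 hpf, a log2 change of -2.69 ± 0.26 (adjusted p = 7.5e-09). The log2 changes of the other V1 genes that fell lay between -1.26 (atp6v1c1a) and -1.93 (atp6v1ba). The 7 that did not pass were atp6v1b2, atp6v1c2, atp6v1e1a, atp6v0a1b, atp6v0a2a, atp6ap1a and atp6ap1lb, whose highest mean in either group was 7.62 CPM. Without replicate 1 of 26 hpf 2 rose, atp6v0a1b (1.70) and atp6v1b2 (0.60), and 19 fell.

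In yolk 2 of 26 genes had their highest mean at 6 hpf, 9 at 10 hpf, 12 at 26 hpf and 3 at 48 hpf, while in whole embryos 17 of 26 had it at 48 hpf. The share of all genes with their highest mean at each age is not given here, so these counts have no background. In whole embryos at 10 hpf against 6 hpf 12 rose and 0 fell, with 21.2% of all genes higher and 20% lower. The median was 0.70, against -0.02 over all genes. With library totals alone 18 rose and 0 fell, where 28.7% of all genes were higher and 10.9% lower, and the median was 1.06. At an unadjusted p edgeR called 1 lower, and DESeq2's Wald test called 2 lower. The rises included atp6v1aa, at 20.5 ± 0.206 CPM against 8.15 ± 0.549 CPM, and atp6v1h, at 18 ± 2.62 CPM against 6.17 ± 2.7 CPM. At 26 hpf against 10 hpf 14 rose and 3 fell, with 30% and 26% of all genes. The gene atp6v0a1b rose to 15.1 ± 1.4 CPM at 26 hpf, against 0.0421 ± 0.0486 CPM, and atp6ap1a to 15.9 ± 1.06 CPM, against 0.361 ± 0.15 CPM. At 48 hpf against 26 hpf 6 rose and 1 fell, with 12.5% and 9.83% of all genes. The 6 were atp6v0cb, atp6v1b2, atp6v0a1b, atp6ap1a, atp6ap1la and atp6ap1lb, and the 1 was atp6ap1b at 30.1 ± 2.13 CPM against 48.3 ± 3.86 CPM. In a fit of the libraries of that step alone, 13 rose and 6 fell, and the share of all genes called in that fit is not given here.

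The change with age was tested between the tissues, as yolk change minus whole-embryo change. For 10 hpf from 6 hpf, 11 genes rose more in yolk and 1 less, with 13.8% and 13% of all genes, and 9 of the 11 were V1 genes. The largest was atp6v1d, at 1.90 ± 0.28 (adjusted p = 6e-06), and the 1 was atp6v1b2, at -3.73 ± 0.33 (adjusted p = 1.1e-09). Totals alone gave 5 higher and 3 lower, where 7.17% of all genes were higher and 20.3% lower. Of the V1 genes 3 were then higher and 1 lower. For 26 hpf from 10 hpf, 3 were higher in yolk and 7 lower, with 17.1% and 12.3% of all genes. With totals alone 1 was higher and 10 lower, with 11.1% and 13.8% of all genes. In the main fit atp6v0a1b stood at -5.35 ± 1.17 and atp6v0cb at -3.15 ± 0.21, while atp6ap1la stood at 3.53 ± 0.80 (adjusted p of 0.00085, 2.8e-12 and 0.0013). The value of atp6v0a1b, which rose in both tissues, rests on few counts at 10 hpf. There it had 4, 0, 4 and 0 counts in whole embryos and 10, 4, 18 and 6 in yolk. For atp6ap1la the yolk libraries of 10 hpf had 8, 6, 2 and 0 counts. For 48 hpf from 26 hpf, 0 were higher and 19 lower, with 9.29% and 13.2% of all genes, and medians of -1.73 over the 26 and -0.16 over all genes. At an unadjusted p edgeR called 0 higher, as did DESeq2's Wald test, which called 20 lower. The largest were atp6ap1la at -5.18 ± 0.69 and atp6v0cb at -3.29 ± 0.21, and the mildest of the 19 was atp6ap1b at -1.13 ± 0.25. The count of 19 was the same without yolk replicate 1 of 26 hpf. For atp6ap1a the value was -1.92 ± 0.71 with all libraries (adjusted p = 0.0499), -1.61 without that replicate (adjusted p = 0.09), and it did not pass with the replicate number as a block (adjusted p = 0.062).

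Pairs of copies encode 9 of the proteins, and the balance within a pair, the share of one copy in the counts of both, does not depend on the scaling of libraries. The share of a copy is set by gene length too, so shares were compared between groups only. At 6 hpf the libraries of yolk and whole embryos did not overlap for 4 of 9 pairs, where 41.7% of 2742 pairs of symbols ending in a and b in the table did not. At 10 hpf it was 7 of 9 against 51.9%, at 26 hpf 8 of 9 against 48.9%, and at 48 hpf 6 of 9 against 62.8%. The smallest p that 4 against 4 libraries can give is 0.029 (exact permutation test, two-sided), reached in 25 of the 36 tests of a pair at an age, and after Benjamini-Hochberg adjustment over all pairs of the table and all ages 0 of the 36 passed, since the smallest adjusted p was 0.056.

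The balance of the c ring pair lay on opposite sides between the tissues at the early and late ages. In yolk atp6v0ca gave 44.1%, 45.4%, 37.6% and 40.4% of the counts of atp6v0ca and atp6v0cb at 6 hpf, and 96%, 95.5%, 95.3% and 95.9% at 48 hpf. In whole embryos it gave 85.3%, 84.8%, 86.1% and 81.3% at 6 hpf, and 59.5%, 59.7%, 57.8% and 61.4% at 48 hpf. Yolk was below whole embryos at 6 and 10 hpf and above them at 26 and 48 hpf, with no overlap at any age. For the A pair, atp6v1aa gave 9.46% ± 2.16 of the counts in yolk and 23.3% ± 8.8 in whole embryos at 6 hpf, and 34.5% ± 3.04 and 64.4% ± 2.43 at 48 hpf. Its share was lower in yolk in every library at all 4 ages.

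The pair of atp6ap1a and atp6ap1b and the a subunit pairs stood far apart between the tissues at 48 hpf. In yolk atp6ap1a gave 2.36%, 2.07%, 2.99% and 5.01% of the counts of atp6ap1a and atp6ap1b at 48 hpf, against 63.2%, 60.9%, 67.5% and 64.9% in whole embryos. The share of atp6v0a2a in the counts of atp6v0a2a and atp6v0a2b was 5.36% ± 1.09 in yolk at 48 hpf and 51.6% ± 5.15 in whole embryos, after 0.289% ± 0.516 and 1.67% ± 1.01 at 6 hpf. For atp6v0a1a beside atp6v0a1b it was 83.4% ± 7.57 in yolk and 35.9% ± 2.72 in whole embryos at 48 hpf, while at 6 hpf it was 99.2% ± 1.18 and 98.8% ± 1.48. The B gene atp6v1ba gave 96.4% ± 1.05 of the counts of atp6v1ba and atp6v1b2 in yolk and 73.7% ± 1.66 in whole embryos at 48 hpf. The C pair atp6v1c1a and atp6v1c1b was closer between the tissues, with 61.6% ± 0.899 of atp6v1c1a in yolk and 58.4% ± 3.73 in whole embryos at 26 hpf, and overlapping libraries at every age but 10 hpf. The other accessory pair overlapped at 48 hpf, with 79.8% ± 9.63 of atp6ap1la beside atp6ap1lb in yolk and 83.7% ± 1.05 in whole embryos. So did the E pair, with 5.73% ± 1.4 of atp6v1e1a in yolk and 6.44% ± 0.882 in whole embryos.

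**Figure D5:**
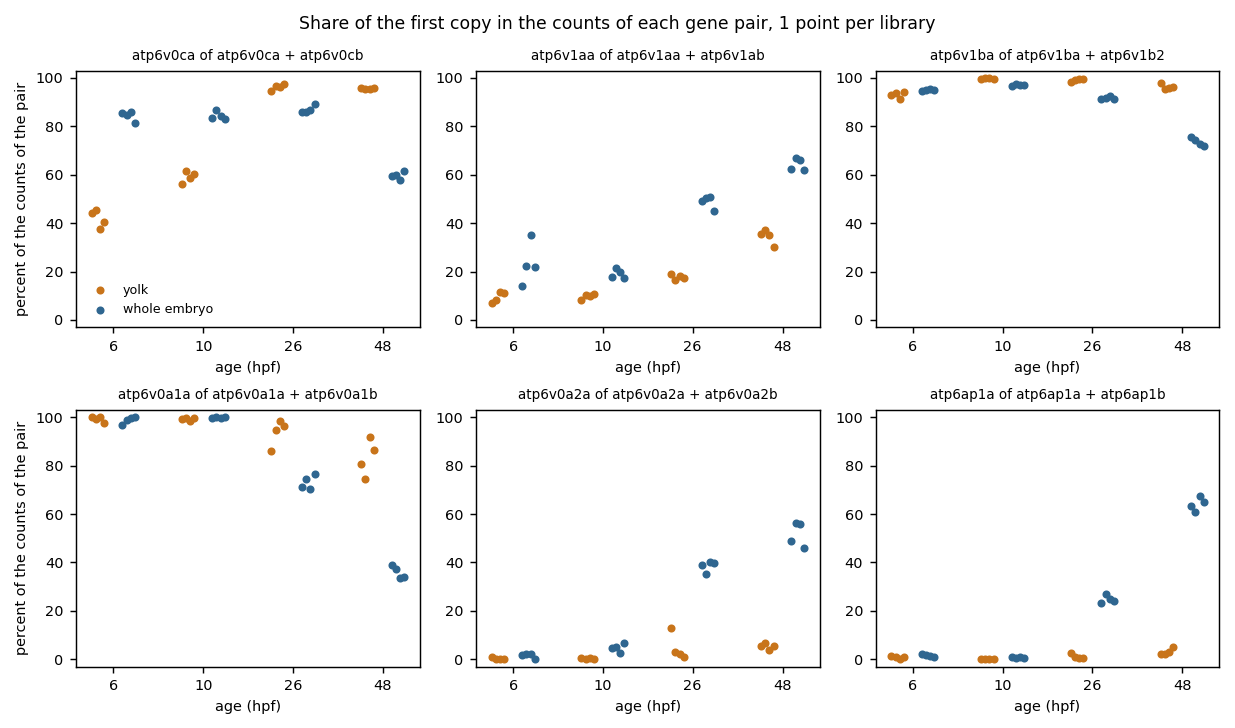
Percent of the counts of a pair held by the copy named first in each panel (y axis, 0 to 100), by age in hpf (x axis), with 1 point per library. The share of atp6v0ca in yolk is far higher at 26 and 48 hpf than at 6 and 10 hpf, at 95.7% ± 0.319 at 48 hpf, and is at 59.6% ± 1.45 in whole embryos at that age, and atp6ap1a stays under 6% in every yolk library while it exceeds 60% in every whole-embryo library of 48 hpf.

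Genes that assemble or assist the pump, or that work beside it at the lysosome, were looked at in 4 further lists, against the same background of all genes. That background was 24.8%, 24.5%, 20.6% and 22.8% higher in yolk at 6, 10, 26 and 48 hpf, and 27.4%, 29.9%, 25.3% and 27.5% lower. Of 12 tested genes of assembly and regulation, 10 were higher and 1 lower in yolk at 6 hpf, 8 and 0 at 10 hpf, 8 and 1 at 26 hpf, and 6 and 2 at 48 hpf. The gene tcirg1b, which encodes a further a subunit under a symbol outside the rule, had 832 ± 237 CPM in yolk and 38.5 ± 1.39 CPM in whole embryos at 26 hpf, a log2 difference of 4.43 (adjusted p = 9.2e-14), and 427 ± 126 and 28.3 ± 6.22 CPM at 48 hpf, a difference of 3.92. For rnaseka, named for a small protein that binds the pump, the difference was 3.41 at 26 hpf, and for its copy rnasekb it was -2.32 at 48 hpf. The gene oxr1b was higher in yolk at 6 hpf, at 1.56, and lower at 26 and 48 hpf, at -1.12 and -2.29.

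Of the 8 genes of the MiT/TFE factors and folliculin, which in mammals drive and restrain transcription of lysosomal genes, 7, 7, 5 and 4 were higher at the 4 ages, and 0, 0, 0 and 1 lower. For this list and the next ones, the shares of all genes were 24.8%, 24.5%, 20.6% and 22.8% higher. The shares lower were 27.4%, 29.9%, 25.3% and 27.5%. The factor gene tfe3a had 227 ± 88.3 CPM in yolk and 25 ± 2.61 CPM in whole embryos at 26 hpf, a log2 difference of 3.19 (adjusted p = 1.8e-13). The 1 lower gene was mitfa, known for its role in pigment cells, at 0.9 ± 0.611 CPM in yolk and 6.8 ± 1.07 CPM in whole embryos at 48 hpf. In the list of 13 endolysosomal ion channels and exchangers, 8, 9, 7 and 7 were higher and 3, 0, 0 and 4 lower. The gene ostm1, whose protein is the partner of the chloride exchanger Clcn7, had a log2 difference of 4.00 at 26 hpf and 2.87 at 48 hpf, and mcoln1a, a lysosomal cation channel gene, had 3.43 and 3.23. The gene clcn4 was at -1.82 at 48 hpf. Ragulator and the Rag GTPases tie amino acid supply at the lysosome to the kinase mTOR. Of 12 genes listed for them, which include slc38a9, mtor and rptor, 11, 12, 9 and 9 were higher and 0, 0, 1 and 1 lower. Among them lamtor5 was at 2.88 at 26 hpf and slc38a9, a lysosomal amino acid transporter gene, at 2.51 at 48 hpf, while rragd was the lower one, at -1.89 and -1.48.

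Markers of ionocytes, skin cells some of which carry the pump at their surface in zebrafish, were set beside these values. The marker list does not single those cells out. For the marker counts below, 24.8%, 24.5%, 20.6% and 22.8% of all genes were higher in yolk at the 4 ages. Lower were 27.4%, 29.9%, 25.3% and 27.5%, and several of the counts are near these shares. Of 9 tested ionocyte genes, 4 were higher and 2 lower in yolk at 6 hpf, 3 and 3 at 10 hpf, 1 and 6 at 26 hpf, and 0 and 7 at 48 hpf. They summed to 26.1 to 40.6, 85.7 to 137, 139.9 to 469.6 and 117 to 189.7 CPM in yolk at 6, 10, 26 and 48 hpf. In whole embryos the sums were 3.53 to 7.48, 21.4 to 29.7, 248 to 291 and 194 to 239 CPM. Most of the yolk sum was ca2, which encodes a carbonic anhydrase and averaged 22.4, 108, 253 and 156 CPM in yolk at the 4 ages, against 2.29, 13.7, 124 and 121 CPM in whole embryos. The defining factor genes foxi3a and foxi3b were at 0 in yolk at 6 hpf, and at 48 hpf foxi3b was at 0.183 ± 0.0841 CPM in yolk and 7.26 ± 1.08 CPM in whole embryos. Of 8 markers of neurons, which use the pump to fill synaptic vesicles, 1 was higher and 0 lower in yolk at 6 hpf, and 2 and 1 at 10 hpf. At 26 and at 48 hpf 0 were higher and 8 lower. They summed to 50.8 to 110.2 CPM in yolk and 1596 to 1785 CPM in whole embryos at 48 hpf. Of 8 macrophage and neutrophil markers 6 were higher and 0 lower in yolk at 26 hpf, where they summed to 110.3 to 223 CPM in yolk and 40.4 to 55.3 CPM in whole embryos. At 6 hpf 0 of them were higher and 1 lower, at 10 hpf 2 and 1, and at 48 hpf 0 and 2. Their sums at 48 hpf were 29.5 to 43.4 CPM in yolk and 45.9 to 65.7 CPM in whole embryos. The part of these cells in the V-ATPase levels was not tested.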

How the data were processed

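RNA-seq counts of wild-type zebrafish yolk tissue and whole embryos were analysed, with 4 libraries in each of 8 groups of tissue and age. Per the labels' protocols, TRIzol was used to extract total RNA, and the library kit was NEBNext Ultra II RNA. The deposited values are whole-number read counts per gene that were not normalized. Per the submitters' processing notes, the tools included STAR 2.7.10b and featureCounts 2.0.6, with Trim Galore 0.6.10 and FastQC 0.12.1, and the build was GRCz11. Whether counting used strand is not given in the sources used here. Of the counts from 1 to 20, 70% to 85.6% were even in a library, so 2 counts may come from 1 fragment, and intervals from counts alone would be too narrow. Gene lengths and sequences were not used here.

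All 32 libraries entered 1 edgeR 4.0.16 quasi-likelihood fit (R 4.3.3, robust) of 8 group means with 24 residual degrees of freedom. Libraries were scaled by TMM, and filterByExpr (lowest count 10, lowest total 15) left 26268 genes. Of the 36109 genes, 2752 had 0 counts throughout. P-values were adjusted over all genes tested by the Benjamini-Hochberg method, at a threshold of 0.05. There were 13 contrasts, comparing yolk with whole embryo at each age, each age with the one before it within a tissue, and the difference between the tissues in each step. SE is the absolute log2 value divided by the square root of F. Library totals of 32302472 to 39765045 counts set the precision, and genes at a few CPM rest on few reads. Replicates all differed by more than sampling noise, with a chi-square per gene of at least 17.57.

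Replicate numbers were read as pairs where every same-numbered pair's deviations from the group means correlated above 0.1 over 9034 genes. This held for yolk against whole embryo at 6 hpf (0.23 to 0.43), 10 hpf (0.19 to 0.38), 26 hpf (0.22 to 0.31) and 48 hpf (0.2 to 0.41), and for yolk at 10 hpf against 6 hpf (0.22 to 0.3). The main fit and the test of pair shares did not use these pairs, so their p-values treat the libraries as independent. The replicate block entered only alternative fits. What same-numbered libraries have in common is not given in the labels.

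Pair shares were tested on log2 ratios of counts, with 0.5 added to each, by an exact two-sided permutation test. Adjustment over all pairs of the table was chosen after seeing the data. The genes and lists were chosen with earlier results of these data known. Values of single libraries follow a rule: at each age the 2 largest and 2 smallest differences that passed, and the 3 highest levels in each tissue. The rule also takes the 2 highest and 2 lowest signed tissue differences per step that passed. These can include the mildest ones where most have the same sign. Pairs whose shares did not overlap at 2 or more ages are taken too. Alternatives were DESeq2 size factors and library totals, no filter, the DESeq2 1.42.0 Wald test, only the libraries compared, a replicate block, no mitochondrially encoded genes, and each replicate left out. The fit was tested on simulated data.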

Additional observations from a re-analysis of the deposited data

Results flagged for a closer look

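Of 207 group values tested, 13 had a library far from the other 3, and chance gives about 1 in 20. In yolk at 6 hpf, atp6v0a2a was 1.17 CPM in replicate 1 (the others 0 to 0.136 CPM), atp6v0b was 145 CPM in replicate 2 (92 to 94.9 CPM), and atp6v1ba was 197 CPM in replicate 3 (234 to 240.4 CPM). In yolk at 10 hpf, atp6v0ca was 717 CPM in replicate 2 (605 to 619 CPM). In yolk at 48 hpf, atp6v1ab was 76.5 CPM in replicate 2 (106 to 109 CPM) and atp6v1e1b 81.5 CPM in replicate 1 (78.8 to 79.2 CPM). In whole embryos at 6 hpf, replicate 2 had 16.3 CPM of atp6v0a1a (12.5 to 13 CPM) and 21 CPM of atp6v1c1a (13.2 to 13.9 CPM). In whole embryos at 26 hpf, atp6ap1la was 10.1 CPM in replicate 3 (8.26 to 8.48 CPM) and atp6v1ab 59.1 CPM in replicate 4 (48.3 to 50.2 CPM). In whole embryos at 48 hpf, replicate 3 had 38.4 CPM of atp6v1b2 (34.9 to 35.2 CPM) and 31.6 CPM of atp6v1c1a (33.8 to 34.2 CPM), and replicate 4 had 36.5 CPM of atp6v1h (40.9 to 41.6 CPM).

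The change with age differed between the tissues in 41 tests that passed (edgeR quasi-likelihood test, Benjamini-Hochberg adjustment), given as yolk minus whole embryo on the log2 scale. All 26 genes were tested at each step. Of all genes tested, 13.8% were higher and 13% lower for 10 hpf from 6 hpf. For 10 hpf from 6 hpf the catalytic ring genes were at 1.30 (atp6v1aa), 1.02 (atp6v1ab), 0.68 (atp6v1ba) and -3.73 (atp6v1b2). Rotor and stalk genes were at 1.90 (atp6v1d), 1.06 (atp6v1f), 1.04 (atp6v1e1b) and 1.20 (atp6v1g1). The joint genes atp6v1c1a and atp6v1h were at 0.78 and 1.25, and atp6v0ca and atp6ap1b at 1.36 and 1.21. With library totals alone, 5 genes were higher and 3 lower at this step, where 7.17% of all genes were higher and 20.3% lower.

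For 26 hpf from 10 hpf, 17.1% of all genes tested were higher and 12.3% lower. Here atp6ap1la (3.53), atp6v0ca (0.82) and atp6ap1b (0.66) were higher in yolk. The 7 that were lower were atp6v0a1b (-5.35), atp6v0cb (-3.15), atp6v1e1b (-1.0), atp6v1aa (-0.94), atp6v1c1b (-0.92), atp6v1h (-0.92) and atp6v0a1a (-0.91).

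For 48 hpf from 26 hpf all 19 that passed were lower in yolk, where 9.29% of all genes were higher and 13.2% lower. Those of V1 were atp6v1aa (-1.79), atp6v1ab (-2.15), atp6v1ba (-1.78), atp6v1b2 (-1.45), atp6v1c1a (-1.76), atp6v1c1b (-1.42), atp6v1d (-1.87), atp6v1f (-1.90), atp6v1e1b (-2.19), atp6v1g1 (-1.93) and atp6v1h (-1.96). Those of V0 were atp6v0b (-1.55), atp6v0ca (-1.44), atp6v0cb (-3.29) and atp6v0d1 (-1.61). The accessory genes were atp6ap1a (-1.92), atp6ap1b (-1.13), atp6ap1la (-5.18) and atp6ap2 (-1.70).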

How the results depend on the processing

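Counts of V-ATPase genes called moved by at most 1.5 times without the filter on low counts, without mitochondrially encoded genes, and with the replicate number as a block in the fit of all libraries, where 2 were lower in yolk at 10 hpf, and in the tissue differences 12 were higher for 10 hpf and 18 lower for 48 hpf. For the pairs of copies, adding 1 to each count left 0 tests passing, while leaving out a replicate, or flipping signs within the replicate block, could not pass by design. With only the libraries compared, 0 genes were lower in yolk at 6 hpf, 13 rose and 6 fell in whole embryos at 48 hpf from 26 hpf, and 2 were lower in the tissue difference for 10 hpf from 6 hpf. A fit chosen after seeing the data, with the replicate block and only the libraries compared, gave the same 4 counts, 1 rise in yolk at 48 hpf from 26 hpf, and 1 higher in the tissue difference for 26 hpf from 10 hpf. With library totals alone, 5 genes were lower in yolk at 10 hpf, 8 lower at 26 hpf and 7 higher at 48 hpf, 2 fell in whole embryos at 48 hpf from 26 hpf, 5 were higher and 3 lower in the tissue difference for 10 hpf, and 1 was higher in that for 26 hpf. Scaling with DESeq2 size factors gave 1 fall in whole embryos at 26 hpf from 10 hpf and 1 higher in the tissue difference for 26 hpf. The DESeq2 Wald test gave these 2 values too, with 2 falls in whole embryos at 10 hpf from 6 hpf and 2 lower in the tissue difference for 10 hpf. Shares of all genes called in fits of only the libraries compared are not given here, so those counts have no background. The causes were not tested.

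When each replicate was left out in turn, yolk against whole embryo gave 18 to 19 higher and 1 to 2 lower at 6 hpf, 18 to 19 and 2 to 3 at 10 hpf, 18 to 19 and 4 to 5 at 26 hpf, and 13 and 7 at 48 hpf. In yolk 18 to 20 rose and 4 fell at 10 hpf, 9 to 13 and 2 to 4 at 26 hpf, and 0 to 2 and 18 to 19 at 48 hpf. In whole embryos 11 to 15 rose and 0 fell, 11 to 14 and 2 to 3, and 4 to 5 and 1. The tissue difference had 9 to 13 higher and 1 to 2 lower, 1 to 3 and 5 to 9, and 0 and 18 to 19. Counts moved by over 1.5 times in 4 of these. There were 2 lower in yolk at 6 hpf without yolk replicate 1 of that age, and 2 rises in yolk at 48 hpf without yolk replicate 1 of 26 hpf. In the tissue difference for 10 hpf, 2 were lower without yolk replicate 2 or whole-embryo replicate 3 or 4 of 6 hpf, or yolk replicate 1 or whole-embryo replicate 1 or 3 of 10 hpf. In that for 26 hpf, 1 was higher without yolk replicate 1, 3 or 4 or whole-embryo replicate 2 or 3 of 10 hpf, or yolk replicate 3 or 4 or whole-embryo replicate 2 of 26 hpf.

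Directions turned round with library totals alone for atp6v0a1a (-0.82 at 26 hpf, -0.54 at 48 hpf), atp6v0cb (-0.44 at 26 hpf) and atp6v1e1a (-0.92 at 26 hpf), yolk against whole embryo. For atp6v0a2a in yolk at 10 hpf against 6 hpf the range was -0.70 to 2.50, with the highest value without yolk replicate 1 of 6 hpf. Genes under about 1 CPM, such as atp6v1c2, are limited by depth.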
